A study of Homo sapiens with 72 samples.

Results

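The direct comparison of irradiated with bystander fibroblasts at 2 h took the 4 irradiated and the 4 bystander arrays of that time, 8 of the 72 arrays of the series, joined in pairs by the number of the experiment. The cells were IMR-90, early-passage fibroblasts from normal human lung, and each dish held both groups at once. Irradiated cells lay on a thin film that α-particles cross and received 50 cGy, and bystander cells lay in the same dish on strips of thicker film that stop the particles, so they shared the medium but were not traversed. Sham-treated controls of the same 4 experiments were not part of the contrast, and their values are given beside it. The 4 experiments were independent, and the 3 groups of an experiment were handled in parallel from pooled cells of a frozen vial, so the spread between experiments is that of 1 line of cells. The film under the cells differed between the groups together with the exposure, and in this contrast the 2 cannot be told apart. RNA was measured from bulk samples, in which fewer cells with a transcript and less of it per cell cannot be told apart.

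α-Particles are densely ionising and leave clustered breaks along the track of each particle through a nucleus. Breaks activate the kinase ATM, which stabilises the transcription factor p53, and p53 then switches on genes that halt the cell cycle, repair DNA, trigger or restrain cell death, and shut p53 itself off again. Cells that are not hit can still respond to signals that their irradiated neighbours send through the medium or through cell contacts, and in fibroblasts this bystander response is best known for inflammatory genes driven by NF-kB. The question put by the direct contrast is which transcripts mark the traversed cells apart from their neighbours in the same dish.

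The values below are scaled signals: the background-subtracted brightness of a probe, with every array brought to the same 75th percentile, on the log2 scale. A difference of 1 is therefore a 2-fold change. Before scaling, the 75th percentile was 9.39 to 9.797 on the irradiated arrays and 9.554 to 10.05 on the bystander arrays (log2). The share of spots well above background was 65.8% to 67.9% on irradiated and 66.8% to 68.7% on bystander arrays, and 0 spots were saturated. After filtering, 25236 of the 41000 probes were tested, and these covered 12696 named genes. The number of arrays, 4 in each group, limits the precision, and the median standard error of a difference was 0.0864.

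The arrays carried the transcripts of fibroblasts. All 18 fibroblast markers on the list were well above background on all 8 arrays, with COL6A1, a chain of type VI collagen, the brightest. Of 12 epithelial markers 6 were above background on all 8 arrays, with KRT18 the brightest, and the defining genes EPCAM, CDH1 and KRT5 were on none. Among 8 endothelial markers 5 were above background on all arrays, led by TEK, while PECAM1 was on 1 array and EMCN on none. Of 10 haematopoietic markers 5 were above background on all arrays, led by CD68, with PTPRC, the common leukocyte antigen, on 1 array. Log2 of the summed signal of 17 fibroblast markers was 20.02 to 20.54 on irradiated and 19.88 to 20.65 on bystander arrays, and the sums of the epithelial (12.82 to 13.76 against 12.81 to 13.59), endothelial (13.01 to 13.91 against 13.03 to 14.04) and haematopoietic lists (9.63 to 10.28 against 9.66 to 10.26) also overlapped. No marker of the 4 lists was called.

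Irradiated cells differed from their bystander neighbours at 2 h by a small set of called transcripts, which were higher in the irradiated cells, and most of the named ones were targets of p53. At an adjusted p below 0.1, 28 probes were called higher, which is 0.111% of those tested, and 0 were called lower (0%). All 28 were higher in 4 of 4 experiments. Without adjustment, limma put 648 probes higher and 609 lower at p under 0.05, and the smallest adjusted p of a lower probe was 0.244. Taking the brightest probe of each gene, 16 genes were called, 0.126% of the genes measured, and 13 of them were on the lists of p53 targets. Those lists were chosen with earlier results of these data known. Over all probes, the dimmer ones of a gene included, the largest called differences were those of BBC3 (1.94), GDNF (1.88), BTG2 (1.67), CDKN1A (1.51), GADD45A (1.16) and GDF15 (1.09). The brightest probes of BBC3 and GDNF gave -0.02 and -0.03 and were not called. The calls rest on comparing the cells within an experiment: without the replicate block the same test called 0 probes. They also rest on the filter, since 0 probes were called when all probes on the array entered the fit, and without scaling between arrays 11 were called higher and 6 lower, of which 8 were among the 28. With slide as a fixed block 31 were called higher and 9 lower, and without experiment 3, whose pair lay on different slides, 30 higher and 8 lower. Each of these sets held 24 of the 28 and 16 or 14 other probes. They are not separate checks, because a fixed slide term takes up the pair of experiment 3 and leaves the other pairs. Without experiment 1, 13 were called higher.

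**Figure D1:**
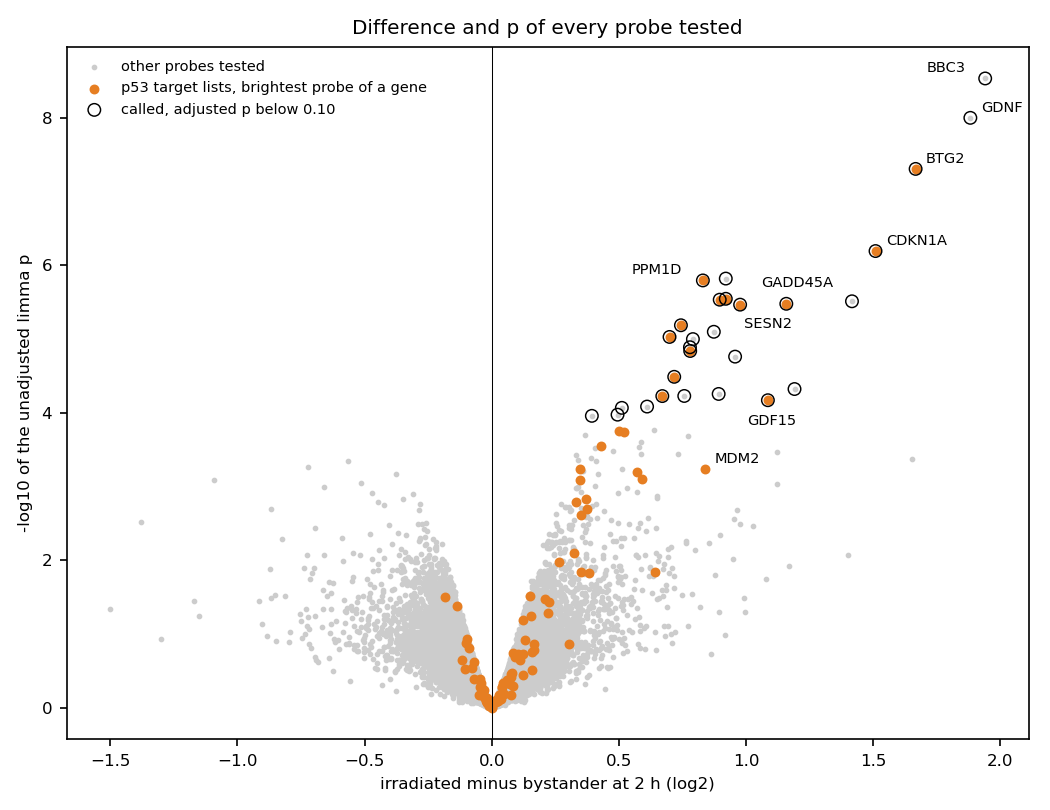
Difference between irradiated and bystander cells at 2 h (log2, horizontal) against -log10 of the unadjusted limma p (vertical) for each of the 25236 probes tested. Orange points are the 102 measured p53 targets by the brightest probe of each gene, and rings mark the 28 called probes, all of which lie to the right of 0.

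The 102 measured members of the p53 lists, of 110 listed, were set against all genes. The lists and members were chosen with earlier results of these data known, so their shares are a description. Of them 13 were called higher (12.7%, against 0.126% of all genes) and 0 lower. This count was 8 without experiment 1, 6 with the control arrays in the fit, 4 without scaling, and 0 without the filter or without the replicate block. In 36 (35.3%) the irradiated cell sample was higher in all 4 experiments, against 5.37% of all genes, and in 7 it was lower in all 4, against 8.29% of all genes. The median difference was 0.076 over the list and -0.007 over all genes, so most members differed little at this time and a minority differed by far more. In 8 of the 102 all 4 irradiated arrays lay above all 4 bystander arrays, as did 0.205% of all genes.

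Genes that halt the cell cycle held the greatest share of calls. Of 13 measured targets in this group 7 were called higher (53.8%, against 0.126% of all genes), and the median difference was 0.699. In all 4 experiments 9 were higher (69.2%, against 5.37% of all genes). BTG2, an antiproliferative protein that slows entry into S phase, read 10.93, 10.77, 11.72 and 10.58 in the irradiated cells of experiments 1 to 4. In the bystander cells it read 9.1, 9.06, 9.88 and 9.29. The lowest irradiated array was above the highest bystander array, and the controls (9.09 to 9.92) lay with the bystander cells. BTG2 was thus 3.17-fold higher in irradiated than in bystander cells, with a difference of 1.67 ± 0.25 (SD of 4 pairs) and an adjusted p of 0.000413.

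CDKN1A encodes p21, the cyclin-dependent kinase inhibitor through which p53 blocks the step from G1 to S phase. Its signal was 14.15, 13.89, 15.02 and 14.60 in irradiated cells and 12.40, 12.13, 13.51 and 13.59 in bystander cells of the same experiments. The groups did not overlap, and experiments 3 and 4 were the high ones in both groups and in the controls (11.75 to 13.40). CDKN1A was 2.85-fold higher, by 1.51 ± 0.35 (adjusted p = 0.00403). Its other probe gave 1.42 ± 0.40 (adjusted p = 0.00783).

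GADD45A, which binds PCNA and p21 and links damage to arrest and repair, read 13.05, 12.92, 13.47 and 14.38 in irradiated cells and 11.54, 11.65, 12.34 and 13.65 in bystander cells. Experiment 4 was the highest in both groups, and its bystander array lay above the irradiated arrays of the other 3, so the groups overlapped while every pair moved the same way. The difference was 1.16 ± 0.33 (adjusted p = 0.00783), and the controls read 11.59 to 12.32.

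GDF15, a secreted member of the TGF-β family, was 15.70, 14.95, 15.75 and 16.31 in irradiated cells against 14.53, 14.24, 15.02 and 14.59 in bystander cells. The bystander array of experiment 3 lay just above the irradiated array of experiment 2. The difference of 1.09 ± 0.48 was the least even among the leading genes (adjusted p = 0.071), and both groups lay above the controls on average, by 1.82 in irradiated and 0.73 in bystander cells.

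PLK3, a stress-activated kinase, TOB1, an antiproliferative relative of BTG2, and PHLDA3, an inhibitor of AKT at the membrane, completed the called genes of this group. PLK3 was higher by 0.78 ± 0.24, with adjusted p = 0.0215. TOB1 was higher by 0.74 ± 0.17 (adjusted p = 0.0136), and its dimmer probe gave 0.73 ± 0.35 (adjusted p = 0.226). PHLDA3 was higher by 0.70 ± 0.18 (adjusted p = 0.0168). Of the rest, the repressor E2F7 gave 0.591 and was higher in all 4 experiments, with an adjusted p of 0.348, and CCNG2 gave -0.183, higher in 1 of 4 (adjusted p = 0.895).

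**Figure D2:**
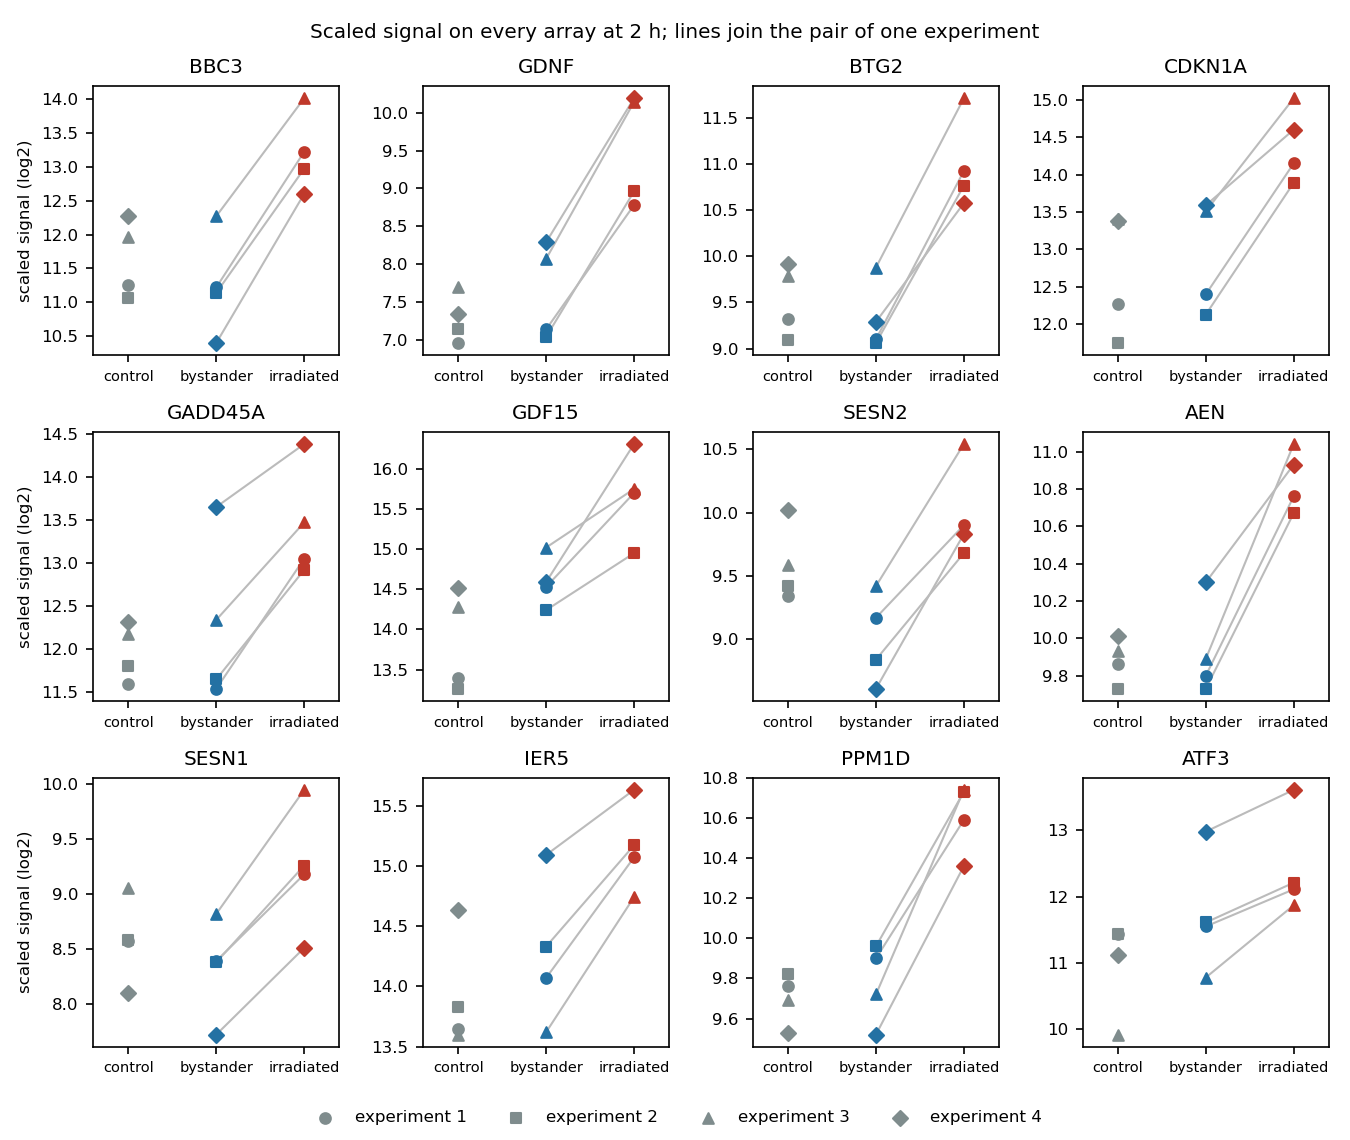
Scaled signal (log2, vertical) of 12 called genes on every array at 2 h, with controls in grey, bystander cells in blue and irradiated cells in red, a marker for each experiment and lines joining the pair of an experiment; BBC3 and GDNF are shown by their leading called probe. The lines rise in all 4 experiments in each panel, by 1.29 to 1.84 for BTG2 and by 0.55 to 1.09 for ATF3, and the control arrays sit near the bystander arrays for BTG2 and PPM1D.

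Genes that act back on p53 were called in 2 of 8 measured (25%, against 0.126% of all genes), with a median of 0.137. In all experiments 4 were higher (50%, against 5.37% of all genes). PPM1D encodes the phosphatase WIP1, which removes activating phosphates from p53 and ATM. It read 10.59, 10.73, 10.74 and 10.36 in irradiated cells and 9.90, 9.96, 9.72 and 9.52 in bystander cells. The groups lay apart, the bystander cells lay within 0.07 of the controls on average, and the difference of 0.83 ± 0.14 was among the most even (adjusted p = 0.00673). TP53INP1, which promotes phosphorylation of p53 and has a role in autophagy, was higher by 0.67 ± 0.25 (adjusted p = 0.065), and was called in 8 of 16 alternative settings.

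MDM2, the ligase that marks p53 for degradation, was 6.72, 6.65, 7.24 and 7.37 in irradiated and 5.77, 6.05, 6.73 and 6.07 in bystander cells. This was a dim probe, and the groups overlapped. Every pair was higher in the irradiated cells, by 0.84 ± 0.36 on average, and the difference did not pass the threshold (adjusted p = 0.291). The difference was lost under another background correction (normexp), which gave -0.139 where the median of all probes was -0.111.

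Targets that trigger or restrain cell death were called in 2 of 26 (7.69%, against 0.126% of all genes), AEN and PHLDA3, with a median of 0.046. In 9 of the 26 the irradiated sample was higher in all 4 experiments (34.6%, against 5.37% of all genes) and in 2 it was lower. AEN is a nuclease that p53 induces during apoptosis. It read 10.76, 10.67, 11.04 and 10.93 in irradiated cells, 9.80, 9.73, 9.89 and 10.30 in bystander cells and 9.73 to 10.01 in controls. All irradiated arrays lay above all others, and the difference was 0.92 ± 0.22 (adjusted p = 0.00783). AEN was also the gene, among the 16 named genes with a called probe that were in RefSeq's table of promoters (GRCh38.p14), whose promoter held a match to the p53 response element as searched here, and its sequence is shown for that reason. The search covered 250 bases before and 50 after each gene's start, and took the 20-base p53 response element without a spacer, with the core of each repeat intact and at most 2 mismatches elsewhere; the element is its own reverse complement, so both strands were covered. Such a match stood in 55 of 35116 promoters (0.157%). GADD45A, PHLDA3 and TP53INP1 were not in the table. The 30 bases at chr15:88621301-88621330, on the plus strand, are given with the match in capitals. The match begins at position -34 from the start of AEN and has 2 mismatches.
AEN: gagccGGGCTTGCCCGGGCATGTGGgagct

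BBC3 encodes PUMA, a BH3-only protein that frees BAX and BAK and so starts apoptosis. Its probes disagreed, and it was singled out after its values were seen. The brightest probe, by which BBC3 counts above as not called, gave -0.02 ± 0.31. The probe with the smallest p of all those tested was another probe of this gene: 13.22, 12.97, 14.01 and 12.60 in irradiated cells against 11.22, 11.14, 12.27 and 10.40 in bystander cells. The groups did not overlap, and the difference was 1.94 ± 0.20, or 3.84-fold (adjusted p = 7.35e-05). The controls read 11.25, 11.07, 11.97 and 12.27, so in experiment 4 the control lay nearer to the irradiated than to the bystander array. The remaining BBC3 probe gave 1.19 ± 0.46 (adjusted p = 0.0601). In experiment 4 it read 8.35 in irradiated, 6.74 in bystander and 8.17 in control cells.

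The death receptor gene FAS read 9.41, 9.60, 9.70 and 9.66 in irradiated cells and 9.1, 9.26, 9.28 and 9.34 in bystander cells. These groups did not overlap and the 4 differences were close together (0.35 ± 0.05), but the adjusted p was 0.291. Under normexp the FAS difference was 0.201 (adjusted p = 0.832). The receptor TNFRSF10A for the ligand TRAIL gave 0.64 ± 0.48 (adjusted p = 0.895), with pairs from 0.10 to 1.18 and a value of -0.334 under the normexp correction. BAX, a pore-forming executioner of apoptosis, gave -0.104 and was higher in 1 of 4 experiments (adjusted p = 0.905). The other TRAIL receptors on the list, TNFRSF10B, TNFRSF10C and TNFRSF10D, gave 0.324, 0.305 and 0.353, with an adjusted p of 0.895 each.

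In the metabolic and redox group 3 of 17 were called (17.6%, against 0.126% of all genes), with a median of 0.067. In all 4 experiments 8 were higher (47.1%, against 5.37% of all genes) and 2 lower (against 8.29%). The sestrins restrain the growth kinase mTORC1 and help to reduce oxidised peroxiredoxins. SESN2 was 9.90, 9.68, 10.54 and 9.83 in irradiated cells and 9.17, 8.84, 9.42 and 8.61 in bystander cells. The irradiated arrays lay above all bystander arrays, while the controls (9.34 to 10.02) overlapped both groups. On average irradiated cells were 0.39 above control and bystander cells lay at -0.58 against it. The direct difference was 0.98 ± 0.23 (adjusted p = 0.00783).

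SESN1 read 9.18, 9.26, 9.95 and 8.51 in irradiated cells against 8.39, 8.38, 8.82 and 7.72 in bystander cells. Experiment 4 was low and experiment 3 high in both groups, and the groups overlapped. The pairs differed by 0.90 ± 0.16 (adjusted p = 0.00783), and a dimmer probe gave 0.96 ± 0.15 (adjusted p = 0.0243). Under the normexp correction SESN1 was not called (0.534, adjusted p = 0.832). TP53INP1 was the other called member, and FDXR, the mitochondrial ferredoxin reductase, gave 0.519 and was higher in all 4 pairs (adjusted p = 0.151).

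Of 13 targets with a role in DNA repair 1 was called, GADD45A (7.69%, against 0.126% of all genes), and the median was 0.075. POLH, the polymerase that copies past ultraviolet lesions, differed by 0.50 ± 0.06, with no overlap of the groups (adjusted p = 0.148). Under the normexp correction the POLH difference was 0.036 (adjusted p = 0.952). DDB2, a damage sensor of nucleotide excision repair, differed by 0.37 ± 0.23 (adjusted p = 0.574). XPC, of the same pathway, gave -0.011 and was higher in 2 of 4 experiments (adjusted p = 0.99). The genes of damage signalling and break repair, which act on the lesion rather than downstream of p53, were called in 0 of 28 (0.126% of all genes were). Their median was 0.022, and BRCA1 and CHEK1 gave 0.22 and 0.15 with adjusted p of 0.895 each.

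The remaining p53 targets held 1 call among 33, ATF3 (3.03%, against 0.126% of all genes), and a median of 0.077. ATF3 is a stress-induced transcription factor that is also an immediate early gene and a gene of the unfolded protein response. It differed by 0.72 ± 0.25 (adjusted p = 0.0432), with a dimmer probe at 0.97 ± 0.73 (adjusted p = 0.712), and both groups lay above control on average, by 1.47 in irradiated and 0.75 in bystander cells. ATF3 was called in 7 of 16 alternative settings, and its call was lost without experiment 1, 2 or 4. The receptor kinase EPHA2 gave 0.57 ± 0.30 (adjusted p = 0.293), and 0.224 under normexp (adjusted p = 0.832).

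GDNF, a secreted survival factor for neurons, was the largest called difference outside the p53 lists, and here too the probes disagreed. Its brightest probe was 11.30, 10.26, 11.57 and 11.71 in irradiated and 11.44, 10.47, 11.62 and 11.44 in bystander cells, a difference of -0.03 ± 0.21 (adjusted p = 0.959) that overlapped throughout. The other probe that passed the filter read 8.78, 8.96, 10.14 and 10.19 in irradiated cells and 7.14, 7.04, 8.07 and 8.29 in bystander cells. On this probe the groups lay apart, the controls read 6.96 to 7.70, and the difference was 1.88 ± 0.18, or 3.68-fold (adjusted p = 0.000126). Which transcripts each probe detects was not tested.

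Among the immediate early genes 2 of 27 were called (7.41%, against 0.126% of all genes), with a median of 0.07. IER5, which has a role in the heat shock response, was called beside ATF3. Its signal was 15.07, 15.17, 14.74 and 15.63 in irradiated cells and 14.07, 14.33, 13.62 and 15.09 in bystander cells. The bystander array of experiment 4 reached into the irradiated range. The difference was 0.87 ± 0.25 (adjusted p = 0.0155). Another bright probe of IER5 went the other way, at -0.14 ± 0.59 (adjusted p = 0.92), so the probes disagreed. In 6 of the 27, called or not, the irradiated sample was higher in all 4 experiments (22.2%, against 5.37% of all genes). The 4 of these that were not called were FOSB, KLF4, JUN and NR4A3, at 0.287, 0.266, 0.253 and 0.238 (adjusted p of 0.633 to 0.895), and FOS, EGR1 and MYC gave 0.04, -0.092 and 0.001 (adjusted p of 0.905 to 0.999). FOSL1, a subunit of the transcription factor AP-1, gave 0.38 ± 0.49 (adjusted p = 0.895) and was higher in 3 of 4 experiments. It was called at 0.629 without experiment 4 (adjusted p = 0.0749) and was -0.037 under normexp.

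OR11A1, named as an olfactory receptor gene, was 8.47, 8.15, 8.81 and 8.72 in irradiated cells and 7.82, 7.38, 8.02 and 7.77 in bystander cells. The groups did not overlap and the difference was 0.79 ± 0.12 (adjusted p = 0.0168), though the normexp correction brought it to 0.156, with an adjusted p of 0.832. INKA2, an inhibitor of the kinase PAK4, was the smallest called difference among the 16 genes (0.51 ± 0.10, adjusted p = 0.0831), and was called in 3 of 16 alternative settings, with 0.259 under normexp (adjusted p = 0.832). The zinc finger gene ZNF79, called through the dimmer of its probes and named after its values were seen, gave 0.61 ± 0.12 (adjusted p = 0.083), and its brighter probe gave 0.51 ± 0.22. Probes without a current gene name made up the rest of the calls, with the transcript MGC5370 at 0.78 ± 0.21 (adjusted p = 0.0204).

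Gene groups that answer to other signals held few calls, but only 0.126% of all genes were called. With that share, 0 calls in a list of this size do not set it apart. The NF-kB and inflammatory genes were called in 0 of 35, with a median of -0.019 (2 of them were above 0 and 1 below 0 in all 4 experiments, beside 5.37% and 8.29% of all genes). The matrix metalloproteinases MMP3 and MMP1 gave 0.58 ± 0.46 and 0.51 ± 0.44 (adjusted p = 0.745 and 0.884), and SERPINB2, an inhibitor of urokinase, gave 0.36 ± 0.14 (adjusted p = 0.293). MMP3 was called under normexp (0.712, adjusted p = 0.000186) and with slide as a random or fixed block (adjusted p = 0.0806 and 0.0125), and MMP1 with slide as a fixed block (0.716, adjusted p = 0.0214). Without experiment 3 both were called, at 0.799 and 0.716 (adjusted p = 0.0145 and 0.0243). These differences are the same as with slide as a fixed block, so the 2 settings are not separate checks. All 3 lay above control in both groups on average: MMP3 by 1.57 in irradiated and 1.00 in bystander cells, MMP1 by 1.48 and 0.98, and SERPINB2 by 1.78 and 1.42. Of the measured CC and CXC chemokines CXCL5 gave 0.066 and the others lay between -0.283 (CXCL2) and -0.066 (CCL11), with adjusted p of 0.895 or above, while CCL5, CCL20 and CXCL10 did not pass the filter.

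The metallothioneins, small proteins that bind zinc and copper, had differences above 0 without a call. None of 11 passed the test, 8 were higher in all 4 experiments (5.37% of all genes were), and the median was 0.253. MT1M gave 0.42 ± 0.21 (adjusted p = 0.306), MT1E 0.41 ± 0.17 (adjusted p = 0.244) and MT1B 0.35 ± 0.19 (adjusted p = 0.57). Under normexp MT1M was called, at 0.538 (adjusted p = 0.0282). Their coding sequences are closely similar and a probe may read more than 1 of them, so the members are not independent. MT1M, MT1E and MT1B stood above control on average in both groups, MT1E by 1.53 in irradiated and 1.12 in bystander cells.

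Cell cycle genes had medians on either side of 0. Of 27 genes of G1/S and DNA replication none was called, 25 differences were above 0 (5960 of all 12696 genes were) and 5 were so in all experiments (18.5%, against 5.37% of all genes), with a median of 0.148. The transcription factor E2F2 gave 0.38 ± 0.24 (adjusted p = 0.712), ORC1 of the origin recognition complex 0.34 ± 0.51, and the replication factor MCM10 0.32 ± 0.47 (adjusted p = 0.895 for both), and the last 2 gave -0.306 and -0.104 under the normexp correction. Leaving out 1 experiment moved ORC1 from 0.16 (without experiment 1) to 0.518 (without experiment 4) and MCM10 from 0.191 to 0.54 in the same way. Of 29 mitotic genes none was called, 6 were lower in all 4 experiments (8.29% of all genes were), and the median was -0.057. The centromeric histone CENPA gave -0.51 ± 0.23 (adjusted p = 0.382), with pairs from -0.76 to -0.26. The kinases TTK and PLK1 gave -0.31 ± 0.45 and -0.22 ± 0.11 (adjusted p = 0.895 for both).

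Genes that answer to cell contact and stretch through YAP and SRF bear on the different films under the cells. None of 18 was called, 7 were higher in all experiments (38.9%, against 5.37% of all genes) and none lower, and the median was 0.089. CCN1, a matrix protein and a standard YAP target, gave 0.57 ± 0.37 (adjusted p = 0.439), THBS1, the matrix protein thrombospondin, 0.35 ± 0.19 (adjusted p = 0.642) and AMOTL2, an inhibitor of YAP, 0.25 ± 0.12 (adjusted p = 0.81). CCN1 was called under normexp, at 0.676 (adjusted p = 0.00418), and without experiment 4, at 0.752 (adjusted p = 0.00912). The part of the film in the results above was not tested.

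Among 32 measured growth factors and secreted signals, GDNF among them, 0 were called by the brightest probe of each gene. In all experiments 8 were higher (25%, against 5.37% of all genes) and 3 lower (against 8.29%), and the median was 0.027. PDGFA gave 0.39 ± 0.15 (adjusted p = 0.553), the WNT inhibitor DKK1 0.35 ± 0.39 and FGF18 0.30 ± 0.17 (adjusted p = 0.895 for both). The genes of the unfolded protein and amino acid response held 2 calls among 19 (10.5%, against 0.126% of all genes). These were SESN2 and ATF3, which the p53 lists hold too. TRIB3, induced by ATF4, gave 0.20 ± 0.32 (adjusted p = 0.895). Heat shock and oxidative stress genes (0 of 14, median 0.014) were led in size by TXNIP, an inhibitor of thioredoxin, at -0.26 ± 0.15, HSPA1A at 0.18 ± 0.38 and SRXN1 at 0.16 ± 0.03. Interferon response genes (0 of 15, median 0.002) included IFIT2 at -0.23 ± 0.45 and IFIT3 at -0.10 ± 0.16, and histone genes (0 of 19, median 0.047) included H3C10 at 0.16 ± 0.13 and H3C4 at 0.16 ± 0.16.

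The cell type markers showed no called difference. Fibroblast markers had a median of -0.029 over the 17 measured, with POSTN at -0.18 ± 0.23, PDGFRA at -0.15 ± 0.08 and PDGFRB at -0.11 ± 0.07. The epithelial markers had a median of 0.158 over the 6 measured, with 5 above 0. The keratins KRT19, KRT14 and KRT8 gave 0.37 ± 0.37, 0.23 ± 0.32 and 0.16 ± 0.32, and KRT18 gave 0.151, higher in all 4 experiments. Under normexp KRT19 and KRT14 turned to -0.305 and -0.196, and KRT8 gave 0.216. The endothelial genes CLDN5, KDR and TEK gave -0.12 ± 0.39, -0.06 ± 0.14 and -0.06 ± 0.06, and CD68, CD14 and CD3E gave 0.08 ± 0.14, 0.02 ± 0.23 and 0.02 ± 0.27. Adjusted p lay at 0.895 or above for each of these markers.

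**Figure D3:**
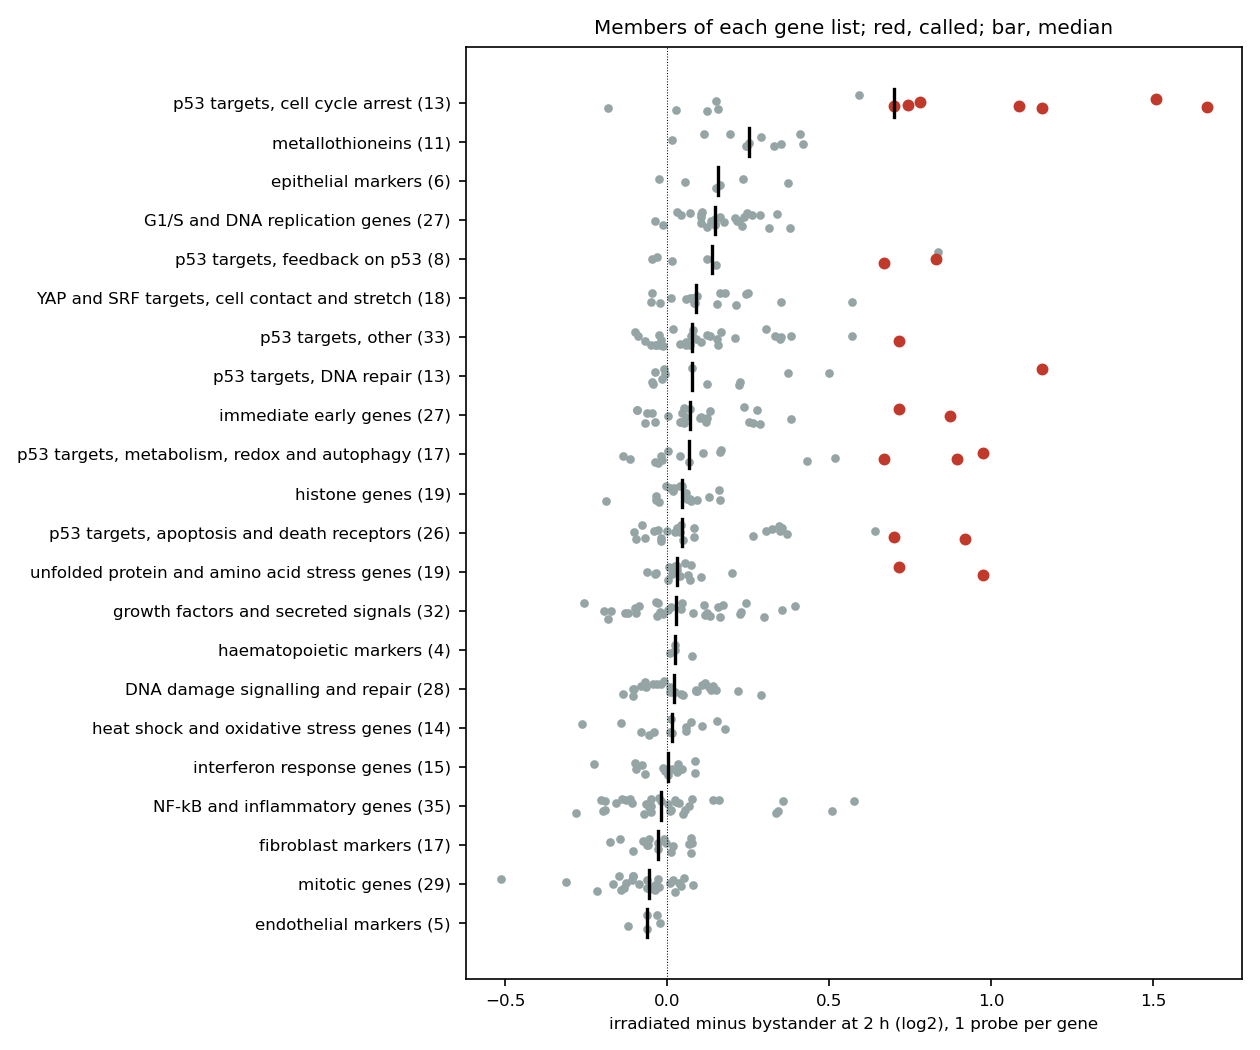
Difference between irradiated and bystander cells at 2 h (log2, horizontal) of each measured member of 22 gene lists, 1 probe per gene, with the number measured in brackets, called genes in red and the list's median as a bar. The p53 targets of cell cycle arrest have 7 red points and the highest median, 0.699, and the metallothioneins have the next, 0.253, with no red point.

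In 15 of the 28 called probes all irradiated arrays lay above all bystander arrays, as in 0.226% of all probes tested. Over genes, 26 had all irradiated arrays above (0.205%) and 12 all below (0.0945%), none of the 12 called. The 28 were chosen from the same irradiated and bystander arrays, so their place against the controls is a description. In 25 of 28 the irradiated sample was higher than the control of the same experiment in all 4 (14.1% of all probes), and in 19 all irradiated arrays lay above all control arrays (2.09% of all probes). The bystander sample was higher than control in all 4 experiments for 8 of the 28 (10.9% of all probes) and lower in all 4 for 4 (10.8%). In 0 did all bystander arrays lie above all control arrays, as in 1.42% of all probes. Control arrays are shared by those 2 sets of values, and no test was made of them.

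The same contrast at the other times came from other arrays. At 4 h 67 probes were called, 0.265% of those tested, and 66 were higher in irradiated cells. At 6 h 5 were called (0.0198%), all higher. Both counts moved with the setting: leaving out 1 experiment gave 3 (without experiment 1) to 313 (without experiment 2) at 4 h and 0 to 120 (without experiment 1) at 6 h. Without the filter 0 were called at either time, and without scaling 19 and 140. The shared calls below are those of the main setting. At 0.5, 1 and 24 h limma called 0, with 1383, 4834 and 671 probes at an unadjusted p under 0.05. Of the 28 probes called at 2 h, 20 were also called at 4 h, which is 71.4% of the 2 h set and 29.9% of the 4 h set, and all 28 were higher in 4 of 4 experiments at 4 h. At 6 h 1 of the 28 was called, BBC3, which is 3.57% of the 2 h set and 20% of the 6 h set, and 25 were higher in all 4 experiments. The median difference of the 28 probes was -0.01 at 0.5 h, 0.15 at 1 h, 0.88 at 2 h, 1.17 at 4 h, 0.66 at 6 h and 0.40 at 24 h, where the 2 h value comes from the arrays that chose the probes.

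The values of single genes at other times are given as measured. The brightest CDKN1A probe gave 0.36 ± 0.24 at 1 h, 1.51 at 2 h and 2.04 at 4 h, where it was called (adjusted p = 0.00091). The other called probe of CDKN1A was -0.22 ± 0.37 at 1 h, 1.42 at 2 h and 2.00 at 4 h. The sensor DDB2, not called at 2 h, reached 1.07 at 4 h and 1.26 at 6 h (adjusted p = 0.0137 and 0.028). FAS gave 0.87 at 4 h (adjusted p = 0.0145) and TNFRSF10A 1.49 (adjusted p = 0.0145). MDM2 gave 1.47 at 4 h (adjusted p = 0.146). XPC, at -0.01 at 2 h, gave 0.74 at 4 h (adjusted p = 0.0145). GADD45A and IER5 were at their highest mean at 2 h, with 0.77 and 0.56 at 4 h against 1.16 and 0.87. Others highest at 2 h included the called GDNF probe (1.88, with 1.72 at 4 h), SESN2 (0.98, with 0.93), TOB1 (0.74, with 0.68), AEN (0.92, with 0.91) and PLK3 (0.78, with 0.59). The 2 h values come from the arrays that chose these genes.

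Whether the difference at 2 h was another than at 4 or 6 h was tested directly, by the interaction of treatment and time. With limma no probe was called against 4 h (0% of 25236, with 772 at an unadjusted p under 0.05) or against 6 h (0%, with 990). Under normexp these tests called 14 and 18 probes, and without scaling 5 and 1. For DDB2 the 2 h difference minus that at 6 h was -0.88, with an adjusted p of 0.275, and minus that at 4 h it was -0.70 (adjusted p = 0.799). The same value for 2 h minus 4 h was -0.53 for CDKN1A and 0.39 for GADD45A, each with an adjusted p of 0.999.

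**Figure D4:**
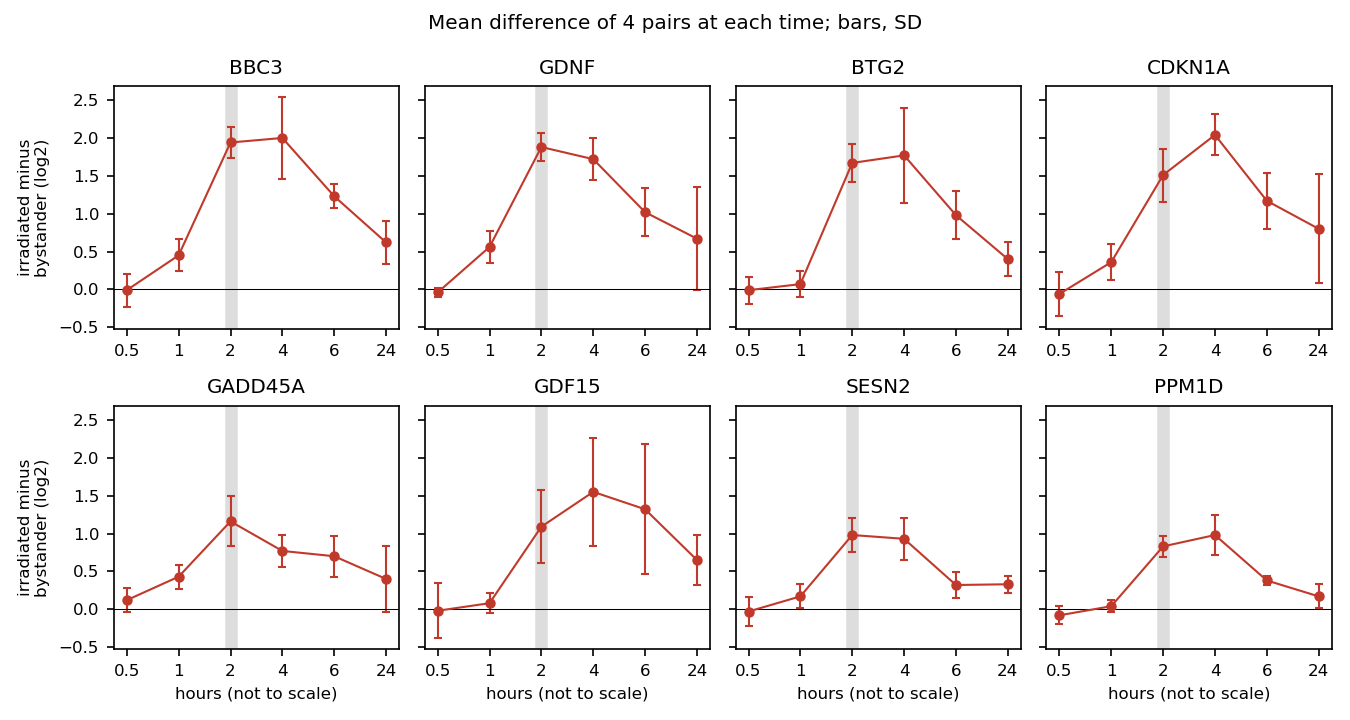
Mean difference between irradiated and bystander cells (log2, vertical) over 4 pairs at each of 6 times from 0.5 to 24 h (horizontal, not to scale), with bars for the SD, for 8 called genes (BBC3 and GDNF by their leading called probe). The grey band marks 2 h; BTG2 goes from 0.07 at 1 h to 1.67 at 2 h, and PPM1D from 0.98 at 4 h to 0.38 at 6 h.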

How the data were processed

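The authors read each 1-colour array with Agilent Feature Extraction 9.1.3.1 and deposited the intensity of every spot after background subtraction and detrending, with no scaling between arrays. Their table of log2 values, which the authors deposited too, equalled log2 of these intensities to within 0.01 in 100% of 200221 values compared on the 8 arrays of irradiated and bystander cells at 2 h, and was an alternative. Each array was scaled to the same 75th percentile over 43376 spots other than controls and floored at 2, and spots of a probe were averaged without non-uniform ones. A probe was dropped where over 10% of its 72 values were dim or flagged for non-uniformity. Names came from RefSeq accessions or symbols (27610 of 41000 probes). limma 3.58.1 in R 4.3.3, with an intensity trend, experiment as a block and Benjamini-Hochberg adjustment, used 3 residual degrees of freedom. Per the methods, dishes of an experiment ran in parallel. Deviations of paired arrays from their group means correlated at 0.509 to 0.825. Both arrays lay on 1 slide in experiments 1, 2 and 4, so their pairs are within-slide values. On simulated data for this comparison of 25122 probes, 84% of changes of 1, 74% of changes of -1 and 56% of 0.5 were recovered, and 17 of 24922 unchanged probes were called. There 50 probes were changed at each size, more in all than were called in the measured data. Spreads were dealt out over probes at random. The recovered shares therefore need not hold for the measured data.

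Genes named are all those called, by the brightest probe of a gene, the p53 targets called, the 3 largest changes of each of 22 lists and 6 fixed genes, some of which are not reported here. BBC3, ZNF79, the called GDNF probe and genes such as BAX, XPC, E2F7, CCNG2, FDXR, FOS, EGR1, MYC, JUN and the chemokines lie outside it and were chosen after their values were seen. The lists and members were chosen with earlier results of these data known. Exact sign-flip tests over 4 pairs cannot go below 0.125 and were not used. Alternatives were other scalings, background correction, filters, blocks, thresholds and leaving out each experiment.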

Additional observations from a re-analysis of the deposited data

Results flagged for a closer look

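In 70 sets of 4 values tested for a value far from the other 3, 4 stood out, where chance flags about 1 set in 20. Experiment 4 was the odd one in 3 of them. For CCN1 its difference between irradiated and bystander cells was 0.02, while the other 3 lay at 0.72 to 0.79. For FOSL1, a subunit of the transcription factor AP-1, it was -0.35 against 0.59 to 0.67, and the mean of 0.38 became 0.629 without that experiment (adjusted p = 0.0749). For CD68 it was 0.28 against 0 to 0.03. For ATF3 experiment 3 stood out, at 1.09 against 0.55 to 0.63.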

How the results depend on the processing

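At 2 h, 28 probes were called higher, 0 lower and 13 p53 targets. Without scaling between arrays these were 11, 6 and 4, with a median difference over all probes of -0.117. With the normexp background they were 27, 1 and 13 (median -0.111), with 18 of the 28 called again, 10 lost and 10 others gained. Without a replicate block limma called 0 probes and 0 targets, with 72 probes higher and 14 lower at an unadjusted p under 0.05. Without the filter 0 and 0 were called, and 3 and 1 when probes at the floor on all 8 arrays were left out, a setting chosen after seeing the data. With the control arrays in the fit 11 and 6 were called, and without an intensity trend 9 and 4. With slide as a fixed block 31 were higher and 9 lower, and 14 targets were called. The differences in that setting are those without experiment 3. Leaving out 1 experiment gave 13 to 30 probes higher, 0 to 8 lower and 8 to 14 targets, with 13 and 8 without experiment 1 and the 8 lower without experiment 3 (3 without experiment 4). At 4 h, where 67 were called, the count was 19 without scaling, 0 without the filter, 1 without the block, 2 with controls in the fit and 3 to 313 when 1 experiment was left out, lowest without experiment 1 and highest without experiment 2. At 6 h (5 called) it was 140 without scaling, 8 after quantile normalization, 0 without the filter, without the block, with controls in the fit or with slide as a fixed block, 2 at an adjusted p below 0.05, 3 without the trend and 0 to 120 on leaving out an experiment, highest without experiment 1. The test of 2 h against 4 h called 5 without scaling and 14 with normexp, and that of 2 h against 6 h 1 without scaling, 1 after quantile normalization, 18 with normexp and 1 without the filter. The cause of these changes was not tested. The 16 called genes stayed higher in all 256 refits and were called in 157.

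Differences turned sign in 26 of 1024 refits of named genes, where the smallest adjusted p was 0.832, and in 18 of these also relative to the median of all probes under that setting. Under normexp these were TNFRSF10A (-0.334), FOSL1 (-0.037), MDM2 (-0.139), FGF18 (-0.036), ORC1 (-0.306), MCM10 (-0.104), KRT19 (-0.305), KRT14 (-0.196), BRCA1 (-0.097), H3C10 (-0.155), PDGFRA (0.008), PDGFRB (0.056), TEK (0.082), CD68 (-0.229), CD14 (-0.306) and CD3E (-0.448). Without scaling they were CD68 (-0.031), CD14 (-0.084) and CD3E (-0.084), all above the median of -0.117; FOSL1, FGF18, MCM10 and BRCA1 under normexp were above its median too. CD3E gave -0.062 and -0.083 with slide as a random or fixed block. Leaving out 1 experiment gave -0.083 to 0.134 for CD3E, -0.057 to 0.127 for CD14 and -0.132 to 0.028 for the bright GDNF probe.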
